A study of Mus musculus with 12 samples.

Results

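Crypts are the pits of the intestinal lining in which stem cells divide and their progeny become absorptive, mucus-secreting, hormone-secreting and tuft cells. The comparison described here is between whole crypt epithelium of the large intestine, not sorted for any cell type, from mice without telomerase and from mice with 1 working copy of its gene. Its members were chosen by label: the 2 unsorted libraries labelled mTert_NULL_Generation4 (null G4) and the 2 labelled mTert_HET (heterozygous, called G0 in the sample descriptions), 4 of the 12 libraries of the series. Another 2 unsorted libraries, labelled mTert_reactivated_Generation4 (reactivated, tagged G4tam in the sample descriptions), entered the model to add to the estimate of spread, and their values are given only beside those of the 4. All mice were C57BL/6 and aged 3 months. The null mice are labelled as Tert-null and as generation 4, a number that by convention counts the generations bred without telomerase, whereas the heterozygous mice kept 1 allele. The labels do not state how Tert was inactivated, what the letters tam stand for or how the gene was switched back on in the reactivated mice, or whether animals were pooled. Libraries are termed biological replicates there, but no animal is identified, and each p-value therefore reflects differences between libraries that could be technical.

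Telomerase adds repeats to chromosome ends, and without it telomeres shorten from one mouse generation to the next until they no longer protect the ends. In the intestine, whose lining renews quickly, short telomeres are known to trigger DNA damage signalling, and the series carries in its title a link from such dysfunction through YAP1, a transcriptional coactivator of the Hippo pathway, to inflammation. Crypt epithelium itself takes part in inflammation: under interferon gamma it presents antigen on MHC class I and class II molecules, and under IL-22 and IL-1 family cytokines it secretes antimicrobial proteins. The genes of these programmes, of the crypt's cell types, and of growth, metabolism and the daily clock are described in turn.

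Of 27658 genes listed for these libraries, 11464 were at 1 RPKM (reads scaled to gene length and library total) or more in at least 2 of the 6 unsorted libraries and were tested, and 16194 were not. Depth implied by the smallest steps of the values was 74.7 to 100.1 (in units of 1e6 reads) in the 4 compared libraries. The share of summed RPKM that fell on the mitochondrial ribosomal RNAs mt-Rnr1 and mt-Rnr2 differed by group: 19.18% and 27.34% in the heterozygous libraries against 12.01% and 11.93% in the null G4 libraries. The sex of the mice is not in the labels. The X-inactivation transcript Xist was at 0.0336 and 0.0328 RPKM in the heterozygous pair against 28.6 and 22.3 RPKM in the null G4 pair, and 4 Y-linked genes summed to 18.3 and 18.9 RPKM against 0.0148 and 0.00791 RPKM. Sex and genotype therefore cannot be told apart within the 4 libraries. In the reactivated pair, 1 library had Xist at 24 RPKM and the other Y-linked genes at 18.2 RPKM, and a model with sex as a term rests on that pair. Because these were bulk libraries, fewer cells of a type and less RNA per cell cannot be told apart anywhere below.

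Tert itself checks the labels. Its heterozygous values were 0.459 and 0.251 RPKM, its null G4 values 0.00778 and 0.0377 RPKM and its reactivated values 0.0171 and 0.0311 RPKM. All 6 values were under the filter, so Tert was not tested. The groups did not overlap, and the reactivated libraries lay with the null G4 ones. The tissue label was checked against 15 genes of epithelial identity, among them the adhesion molecules Epcam (211, 277, 338 and 414 RPKM, heterozygous libraries first) and Cdh1 (83, 87.4, 133 and 146 RPKM), all of which were detected and none of which passed the test.

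Most genes lay higher in the null G4 libraries. The median log2 difference, null G4 minus heterozygous, was 0.36 over the tested genes on the log2(RPKM + 1) scale, and 86.1% of differences were positive. Quantile normalization, which gives every library the same distribution of values, brought the median to 0.016 and the positive share to 52.4%. A gene is said to be called, or to have risen or fallen, when its Benjamini-Hochberg adjusted p from limma was below 0.05. As deposited, 570 genes were called higher, which is 4.97% of those tested, and 66 were called lower, or 0.576%. After quantile normalization 135 (1.18%) were higher and 102 (0.89%) lower. Both ways, all of those 135 (1.18%) were higher and 36 (0.314%) lower. The plot of the differences before and after normalization shows the shift as a cloud lying below the line of equality. The 2 groups did not overlap, with null G4 higher, for 8566 genes (74.7%) and, with null G4 lower, for 745 (6.5%). Of the tested genes 50 reached the filter only through the null G4 libraries (6 called higher, 2 of them both ways), and 54 only through the heterozygous ones (16 called lower, 8 of them both ways). Such genes had to differ to be tested, and those named below are given by their values, with no test.

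**Figure D1:**
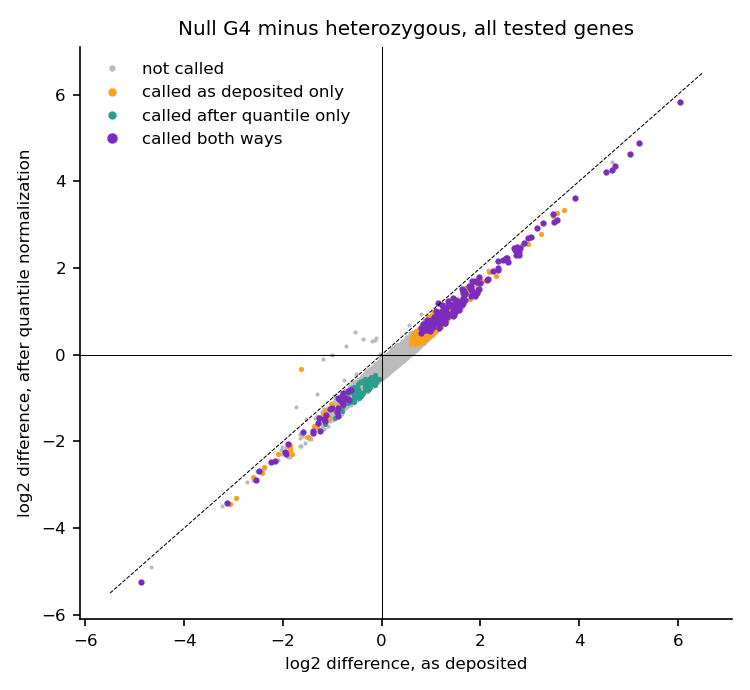
Each point is 1 of 11464 tested genes, with its log2 difference (null G4 minus heterozygous) as deposited on the horizontal axis and after quantile normalization on the vertical axis. Most points sit to the right of 0 and below the dashed line of equality. Genes called both ways reach the far ends of the cloud, but some lie nearer its middle. Some genes far out are not called both ways.

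Of the genes called both ways, 83 higher and 15 lower also kept the call in each of the 6 fits that left out 1 library, and 29 and 4 were called with the sex term as well. How many genes passed depended on which libraries set the spread. With the 4 compared libraries alone 5513 were called higher and 291 lower, and without reactivated replicate 2 the counts were 5415 and 278. The reactivated pair was also the one whose 2 libraries differed most from each other (chi-square per degree of freedom of 20.12, against 14.34 for the heterozygous and 6.62 for the null G4 pair). Values are given below as RPKM per library, with heterozygous before null G4 and replicate 1 before replicate 2, and "both ways" always means as deposited and after quantile normalization. Adjusted p-values are limma's and are for the values as deposited unless said otherwise.

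Most of the tested antigen-presentation genes of MHC class II rose, whereas 4.97% of all genes did. Class II molecules display peptides from engulfed material to helper T cells. Cd74, the invariant chain that escorts them to the loading compartment, had 13.7 and 18.4 RPKM in heterozygous crypts but 511 and 604 RPKM in null G4 crypts. Its lowest null G4 value was far above its highest heterozygous one, and the log2 difference came to 5.04 ± 0.26 (SE, adjusted p = 5.5e-05). The chains of the classical molecules behaved alike: H2-Aa was at 1.94 and 3.59 against 122 and 149.7 RPKM (5.22 ± 0.26, adjusted p = 5.5e-05). H2-Ab1 went from 3.58 and 5.78 to 136 and 159 RPKM, a log2 difference of 4.73 (adjusted p = 6.3e-05). For H2-Eb1 the values were 3.19 and 4.42 against 108 and 132 RPKM, a log2 difference of 4.66 (adjusted p = 5.5e-05). In each of these the 2 heterozygous libraries were low and the 2 null G4 libraries high, without overlap. H2-DMa and H2-DMb1 encode the exchange factor that loads peptide. H2-DMb1 was at 0.817 and 1.13 against 26.8 and 31.1 RPKM, and H2-DMa at 1.01 and 1.67 against 15.9 and 20.2 RPKM, with log2 differences of 3.92 and 3.03. The H2-A, H2-E and H2-DM genes named lie together between bases 34119541 and 34316674 of chromosome 17 in the mm10 assembly, whereas Cd74 and Ciita lie elsewhere.

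Ciita, the coactivator that switches class II genes on, was at 0.476 and 0.558 against 7.23 and 7.53 RPKM (2.47 ± 0.15, adjusted p = 1.2e-04). Its reactivated values, 8.34 and 6.61 RPKM, lay beside those of null G4. Of 11 tested class II genes 7 were called higher and none lower, as deposited, after quantile normalization, with the sex term and in every fit that left out 1 library, with a median log2 difference of 3.03 beside 0.36 for all genes. With the sex term their adjusted p ran from 0.011 for Ciita to 0.0374 for H2-DMa, and when quantile normalization was combined with that term H2-DMa alone of the 7 was not called (adjusted p = 0.0738). The lysosomal proteases and reductase that prepare peptides did not pass: Ctss was at 23.6 and 43.1 against 48.5 and 59.7 RPKM (adjusted p = 0.103) and Lgmn at 4.78 and 5.87 against 10.1 and 10.5 RPKM (adjusted p = 0.0507). In heterozygous crypts Ctss lay above the class II chains, whereas Lgmn lay near H2-Ab1 (3.58 and 5.78 RPKM).

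Class II genes are also the mark of professional antigen-presenting cells, and markers of such cells were therefore read in the same libraries. Of 21 macrophage and dendritic cell markers 18 were under 1 RPKM in all 4 libraries. Their summed level was 9.96 and 11.3 against 25.3 and 30.3 RPKM. Most of that was Cd14, a receptor for bacterial lipopolysaccharide, at 6.37 and 5.59 against 21.2 and 26.1 RPKM (1.81, adjusted p = 0.00271). Of the chains of complement C1q, made by macrophages, C1qa was at 1.5 and 2.18 against 0.166 and 0.716 RPKM. It reached the filter only through the heterozygous libraries. The other chains went the other way, all under the filter. C1qb was at 0 and 0.104 against 0.257 and 0.109 RPKM, and C1qc at 0.00588 and 0.0468 against 0.186 and 0.195 RPKM. The macrophage lysozyme Lyz2 was at 0.171 and 0.286 against 0.693 and 0.784 RPKM, and the mannose receptor Mrc1 at 0.0211 and 0.021 against 0.17 and 0.197 RPKM. All of these were low beside the class II genes in null G4 crypts. Of genes that accompany class II in dendritic and B cells, H2-Oa reached at most 0.0172 RPKM in any of the 4 libraries and H2-Ob 0.0824. The costimulators Cd80 and Cd86 reached 0.0313 and 0.0154 RPKM. Itgax was at 0.133 and 0.211 against 0.373 and 0.298 RPKM, higher in null G4 but under the filter. Of 16 leukocyte and T cell markers 8 were under 1 RPKM in all 4 libraries, and their sum was 6.39 and 15.8 against 6.31 and 5.91 RPKM, with no member called. The 12 B and plasma cell markers summed to 24.9 and 29 against 45.9 and 50.4 RPKM. Among them Igha, the heavy chain of IgA, rose from 2.05 and 1.45 to 9.12 and 7.6 RPKM (1.77, adjusted p = 0.00353), but not after quantile normalization (adjusted p = 0.0666). Stromal and endothelial markers summed to 6.71 and 8.26 against 11 and 11.8 RPKM, with 15 of 19 under 1 RPKM in all 4 libraries. The part of these cells in the class II values was not tested.

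**Figure D2:**
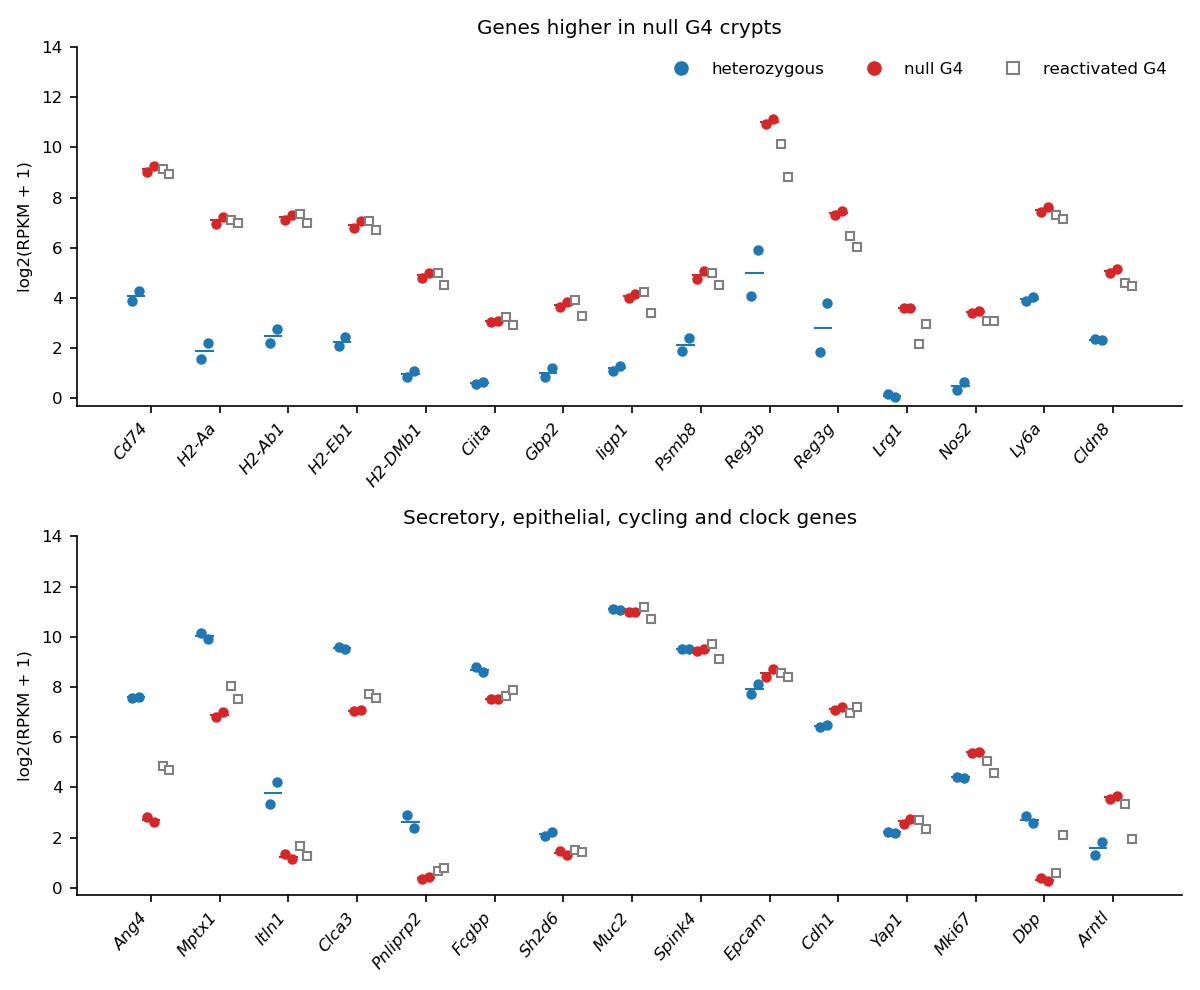
Levels of 30 genes as log2(RPKM + 1) per library, with heterozygous libraries in blue, null G4 in red and reactivated in open grey squares, and a bar for the mean of each compared pair. In the upper panel the red points lie above the blue ones without overlap for every gene shown; in the lower panel Ang4, Mptx1, Itln1, Clca3 and Pnliprp2 lie lower in red, while Muc2 and Spink4 lie level.

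The promoters of class II genes carry a conserved module whose last element, the Y box, is bound by the factor NF-Y. The letters TGATTGG were searched on both strands in the 150 bases before the start of each gene, using RefSeq promoters of GRCm38.p6, the assembly also called mm10. On the class II list they were present in 3 of 8 genes with a window (37.5%). The share was 9.4% of 7927 tested genes and 6.7% of all 27025 genes with one. Those 8 also take in the lysosomal proteases and reductase of the list, while Cd74, Ciita and H2-Ab1 had no window. The share was similar on the class I presentation list described below, at 7 of 18 genes with a window (38.9%). The 3 windows are shown because they belong to genes with some of the largest differences, with the Y box in capitals. It begins 50 bases before the start in H2-Aa (chr17:34287824-34287973, minus strand), 61 in H2-Eb1 (chr17:34305717-34305866, plus strand) and 63 in H2-DMb1 (chr17:34153041-34153190, plus strand).
H2-Aa: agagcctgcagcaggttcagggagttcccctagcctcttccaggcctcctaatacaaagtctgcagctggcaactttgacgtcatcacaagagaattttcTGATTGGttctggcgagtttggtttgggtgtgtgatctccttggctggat
H2-Eb1: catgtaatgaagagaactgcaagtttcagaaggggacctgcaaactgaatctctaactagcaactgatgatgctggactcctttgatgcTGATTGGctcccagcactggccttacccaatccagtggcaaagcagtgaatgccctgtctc
H2-DMb1: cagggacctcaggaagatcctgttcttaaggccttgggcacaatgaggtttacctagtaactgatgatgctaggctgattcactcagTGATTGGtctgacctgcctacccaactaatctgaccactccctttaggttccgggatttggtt
All 3 genes were called higher both ways.

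MHC class I molecules display peptides from inside the cell, which the immunoproteasome cuts and the Tap transporter carries. Of 24 tested class I presentation genes 15 were called higher, beside 4.97% of all genes, and none lower. Their median log2 difference was 1.08, and 11 of the 15 were called both ways, beside 1.18% of all genes. Tap1 was at 3.12 and 3.69 against 17 and 20.2 RPKM (2.15 ± 0.2, adjusted p = 0.00124). Nlrc5, the coactivator of class I genes, was at 0.845 and 1.07 against 6.11 and 5.52 RPKM (1.80, adjusted p = 0.00209). Both genes were low in the 2 heterozygous libraries and without overlap. B2m, the light chain shared by class I molecules, was at 82.1 and 201 against 458 and 541 RPKM (1.95, adjusted p = 0.0395). Its 2 heterozygous values differed more from each other than the null G4 ones did, after quantile normalization its adjusted p was 0.0663, and without heterozygous replicate 1 or null G4 replicate 2 it was 0.0898 or 0.107. Genes of the class I family are close copies of each other, so reads may have been split among them. Of the inducible subunits of the immunoproteasome, Psmb8 was at 2.7 and 4.24 against 26.3 and 32.5 RPKM (2.78, adjusted p = 0.00104) and Psmb9 at 2.01 and 2.83 against 15.2 and 17.6 RPKM (2.35, adjusted p = 0.00128). In this group 4 of 5 genes were called higher and 3 of them also after quantile normalization, beside 4.97% and 1.18% of all genes. The 30 constitutive proteasome genes had 5 called higher as deposited, beside 4.97% of all genes, and none after normalization. Their median of 0.89 fell to 0.39 with it. No class I or immunoproteasome gene was called with the sex term, where Tap1 had an adjusted p of 0.0565 and Psmb8 of 0.0743, and 6 of the 15 and 2 of the 4 calls were kept in every fit that left out 1 library.

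Interferon gamma also induces large GTPases that attack the vacuoles of microbes. Of 12 such genes tested 11 were called higher, 9 of them also after quantile normalization and 7 in every fit that left out 1 library, with a median of 1.47. Of all genes 4.97% were called higher and 1.18% both ways. Iigp1 was at 1.13 and 1.43 against 14.8 and 16.8 RPKM (2.88 ± 0.26, adjusted p = 0.00111). Gbp2 went from 0.787 and 1.31 to 11.5 and 13.1 RPKM (2.71 ± 0.23, adjusted p = 7.0e-04). These 2 were the members also called with the sex term (adjusted p = 0.0253 and 0.0419). Igtp was at 2.9 and 4.29 against 21.2 and 23.6 RPKM and Irgm2 at 2.98 and 4.47 against 12.6 and 14.1 RPKM, with log2 differences of 2.36 and 1.61 (adjusted p = 0.0036 and 0.00623). Tgtp1 and Tgtp2 are near-identical copies and their split is uncertain. Tgtp1 was at 0.135 and 0.106 against 4.18 and 5.36 RPKM. In all of these the groups were apart, with the heterozygous libraries low.

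The core letters bound by interferon regulatory factors, GAAANNGAA, occurred on either strand within 150 bases before the start in 8 of the 8 GTPase genes with a window, beside 3.8% of tested genes and 4.6% of all genes. The gamma-activated site, GAS, searched as TTCNNNGAA, occurred in 5 of the 8, beside 4% of tested genes. A pair of neighbouring genes and 1 gene from another family are shown, with both kinds of match in capitals. In Igtp (chr11:58199406-58199555, plus strand) the GAS match begins 45 and the IRF match 34 bases before the start. In Irgm2 (chr11:58214827-58214976, plus strand) they begin 75 and 64 bases before it. In Gbp2 (chr3:142620513-142620662, plus strand) the IRF match is on the minus strand and begins 58 bases before the start.
Igtp: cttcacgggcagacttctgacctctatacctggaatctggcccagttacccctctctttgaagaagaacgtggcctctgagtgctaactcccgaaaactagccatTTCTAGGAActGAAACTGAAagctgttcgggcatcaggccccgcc
Irgm2: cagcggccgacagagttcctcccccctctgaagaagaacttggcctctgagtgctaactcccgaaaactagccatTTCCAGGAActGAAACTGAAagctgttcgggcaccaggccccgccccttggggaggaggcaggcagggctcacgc
Gbp2: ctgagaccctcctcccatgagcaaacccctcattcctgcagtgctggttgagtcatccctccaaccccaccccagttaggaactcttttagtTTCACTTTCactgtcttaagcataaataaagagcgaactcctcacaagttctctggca
In Igtp and Irgm2 the 2 matches are the same distance apart. A match describes letters in a window and is not evidence that a factor was bound.

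Of 21 interferon receptor and signalling genes 4 were called higher and 3 both ways, beside 4.97% and 1.18% of all genes. Their median of 0.50 fell to 0.04 after quantile normalization. The receptor chain Ifngr1 was at 16.3 and 23.3 against 29.2 and 35.6 RPKM and did not pass (adjusted p = 0.0698). Ifng, the cytokine itself, was at 0 and 0.00937 against 0.121 and 0.0247 RPKM, under the filter in every library. Of 35 antiviral genes typical of type I interferon 7 were called higher as deposited, beside 4.97% of all genes, and none of them after normalization, when 1 was called lower. Their median was 0.21. Zbp1, a sensor of viral nucleic acid and the member of smallest p, was at 3.21 and 4.2 against 7.69 and 7.89 RPKM (0.91, adjusted p = 0.027, and 0.143 after normalization). Its groups did not overlap, and the call was lost without heterozygous replicate 1 or either null G4 library (0.1 to 0.171). Ubd, a ubiquitin-like modifier induced by interferon gamma and TNF, was at 0.244 and 0.243 against 6.71 and 7.91 RPKM (2.74 ± 0.15, adjusted p = 5.5e-05), a call kept with the sex term (adjusted p = 0.011).

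**Figure D3:**
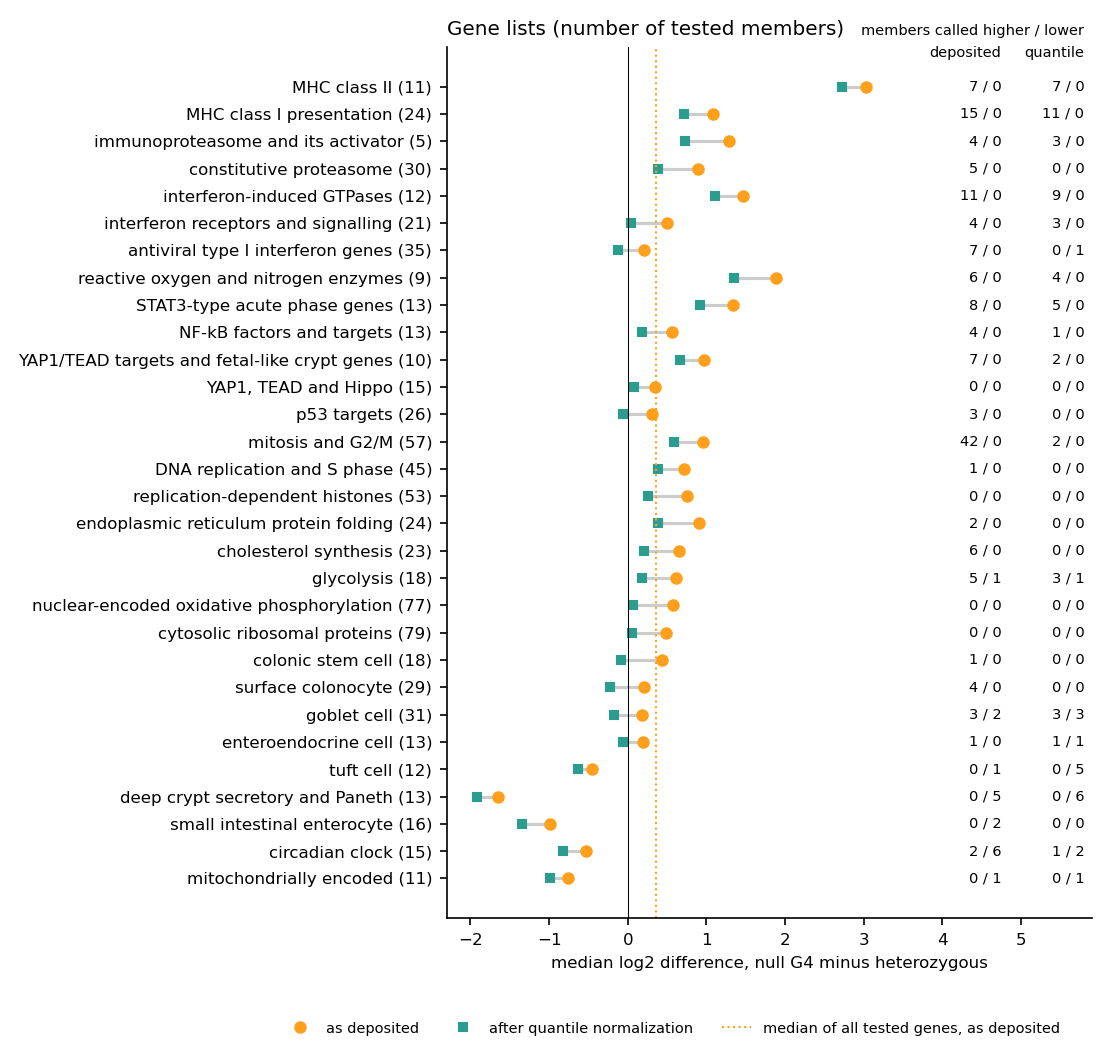
Median log2 difference (null G4 minus heterozygous) of 30 of the 66 gene lists, as deposited in orange circles and after quantile normalization in green squares, with the numbers of members called higher and lower at the right. Of the lists plotted MHC class II has the highest median, 3.03, and the deep crypt secretory and Paneth list the lowest, -1.65. The dotted line is the median of all tested genes, 0.36. Medians and counts take in all tested members, also those that reached the filter only through the heterozygous libraries. These number 2 in the deep crypt list, 3 in the tuft cell list and 1 in glycolysis.

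Several antimicrobial proteins of the epithelium rose. Reg3b, a secreted lectin that binds bacteria (chromosome 6, 78370657 to 78373466 in mm10), was at 15.7 and 58.5 against 1941 and 2228 RPKM. Its log2 difference was 6.05 ± 0.6 (adjusted p = 0.00154), which is the highest of all genes called both ways, although the 2 heterozygous libraries differed from each other. Reg3g, its close relative that kills Gram-positive bacteria, was at 2.55 and 13 against 155 and 174 RPKM (4.55, adjusted p = 0.00353). With the sex term neither passed (adjusted p = 0.167 and 0.234), and their reactivated values were intermediate, at 1113 and 452 RPKM for Reg3b and at 88.2 and 64.6 RPKM for Reg3g. Reg4, a family member marking deep crypt secretory cells, went the other way, from 157 and 212 to 73.2 and 90.9 RPKM. It was called lower after quantile normalization only (adjusted p = 0.0377, against 0.0572 as deposited). Slpi, an inhibitor of neutrophil elastase, was at 0.155 and 0.163 against 9.09 and 9.52 RPKM (3.15 ± 0.27, adjusted p = 7.4e-04). Pla2g2a, a phospholipase that attacks bacterial membranes, was at 4.12 and 3.42 against 20.3 and 19.7 RPKM (2.14, adjusted p = 0.00132). Of 13 other antimicrobial products tested 5 were called higher and 1 lower, beside 4.97% and 0.576% of all genes. Both ways the counts were 3 and 1.

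Genes known as targets of STAT3 in acute inflammation included these Reg genes, so the lists share members. Of 13 tested 8 were called higher and 5 of them both ways, beside 4.97% and 1.18% of all genes, with none lower. Lrg1, a secreted glycoprotein of the acute phase, was at 0.109 and 0.0418 against 11 and 11.1 RPKM (3.48 ± 0.24, adjusted p = 1.8e-04). Saa1, serum amyloid A, was at 18.9 and 29 against 117 and 124 RPKM (2.31, adjusted p = 0.0304), and its call was lost after quantile normalization (adjusted p = 0.132) and without heterozygous replicate 1 (adjusted p = 0.0647). Of 9 tested genes on the list of reactive oxygen and nitrogen enzymes 6 were called higher, 4 of them both ways. Of all genes the shares were 4.97% and 1.18%. None of the 9 was called lower, and their median was 1.89. The list is not limited to enzymes that make these species, and its called members include Gpx2 and Ido1. Nos2, the inducible nitric oxide synthase, was at 0.24 and 0.549 against 9.6 and 10 RPKM (2.96 ± 0.16, adjusted p = 5.5e-05), and it was the member also called with the sex term (adjusted p = 0.0111). Duox2, an oxidase of the apical membrane that makes hydrogen peroxide, was at 12.7 and 14.5 against 51.7 and 54.1 RPKM (1.89, adjusted p = 0.00271). Its maturation factor Duoxa2 was at 1.37 and 2.94 against 13.7 and 13.4 RPKM (2.25, adjusted p = 0.00284). Nox1, the superoxide-producing oxidase of colonic crypts, was at 8.19 and 6.47 against 28.7 and 34 RPKM (1.96, adjusted p = 0.00475). Each of these oxidases was low in both heterozygous libraries and did not overlap.

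NF-kB switches on inflammatory genes, and inflammasomes release cytokines of the IL-1 family. Of 13 NF-kB factors and targets 4 were called higher, beside 4.97% of all genes, 1 both ways, none of the 4 in every fit that left out 1 library, with a median of 0.56. Tnf was at 0.166 and 0.283 against 1.4 and 1.38 RPKM (0.97, adjusted p = 0.0373), a call lost after quantile normalization (adjusted p = 0.0663), with the sex term and without any 1 of the 4 compared libraries (0.0573 to 0.118). Among 17 inflammasome and IL-1 family genes 3 were called higher and 1 lower, beside 4.97% and 0.576% of all genes, with 1 called both ways. Il18, the cytokine released by the inflammasome, was at 11.6 and 14 against 19 and 24.5 RPKM (0.72 ± 0.27, adjusted p = 0.0824). The protease that cuts it, Casp1, was at 25.7 and 37.9 against 49.4 and 58.9 RPKM (0.77 ± 0.25, adjusted p = 0.0672). Neither passed, although their groups did not overlap, which 74.7% of genes also show. Il18bp, the secreted inhibitor of IL-18, did pass: it was at 2.09 and 2.03 against 8.53 and 8.59 RPKM (1.64 ± 0.19, adjusted p = 0.00358, and 0.00828 after quantile normalization). Of 12 epithelial chemokines and cytokines tested 1, Ccl8, reached the filter only through the null G4 libraries. This chemokine for monocytes was at 0.0446 and 0 against 1.36 and 1.4 RPKM. Of the other 11 members 2 were called higher and 1 both ways, beside 4.97% and 1.18% of all genes.

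The Hippo pathway holds YAP1 back from the nucleus, where with TEAD factors it drives repair genes and a fetal-like state of the crypt. Yap1 was at 3.72 and 3.57 against 4.88 and 5.69 RPKM, a log2 difference of 0.43 ± 0.17 (adjusted p = 0.087) that became 0.082 after quantile normalization. None of 15 genes of the YAP1, TEAD and Hippo list was called, and its median was 0.34, beside 0.36 for all genes. Of 10 tested targets and fetal-like crypt genes 7 were called higher, beside 4.97% of all genes, with a median of 0.97. The 2 called both ways, Ly6a and Anxa1, were also called in every fit that left out 1 library. Ly6a, the surface protein Sca-1 that marks regenerating crypts, was at 13.8 and 15.6 against 171 and 194 RPKM (3.55 ± 0.22, adjusted p = 1.2e-04, and 0.0174 with the sex term). Ly6 genes have close relatives, so part of that signal may be shared. Anxa1, an annexin of the fetal-like set, was at 9.05 and 9.04 against 27.1 and 33.5 RPKM (1.63, adjusted p = 0.00353, and 0.0993 with the sex term). Classical YAP1 targets were near or under the filter: Cyr61 was at 0.493 and 0.696 against 0.662 and 0.929 RPKM, Ctgf was listed at 0 in all 4 libraries, and Clu, a marker of revival stem cells, was at 0.139 and 0.174 against 0.139 and 0.127 RPKM. Ly6c1, a relative of Ly6a, was at 0.225 and 0.158 against 9.5 and 11.7 RPKM (3.28 ± 0.15, adjusted p = 5.5e-05), and complement C3 at 0.793 and 0.884 against 5.72 and 6.38 RPKM (1.94, adjusted p = 2.4e-04).

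Several genes of deep crypt secretory cells fell, whereas 0.576% of all genes did. These cells sit between the stem cells of the colon and take the place that Paneth cells have in the small intestine. Ang4, a ribonuclease with antimicrobial activity (chromosome 14, 51763878 to 51773590), was at 190.0 and 195 against 6.04 and 5.09 RPKM. Its log2 difference, -4.88 ± 0.2 (adjusted p = 4.4e-05), was the largest fall of any gene called both ways. Ang4 has close relatives on chromosome 14, and its reads may include theirs. Mptx1, a mucosal pentraxin, fell from 1145 and 954 to 110.2 and 126 RPKM (-3.13 ± 0.28, adjusted p = 0.00104). Itln1, an intelectin that binds microbial sugars, was at 9.1 and 17.7 against 1.54 and 1.19 RPKM (-2.54, adjusted p = 0.00269). In each of the 3 genes both null G4 libraries were below both heterozygous ones. Pnliprp2, a lipase relative, was at 6.43 and 4.18 against 0.256 and 0.35 RPKM. It was 1 of 2 among 13 deep crypt secretory and Paneth genes tested that reached the filter only through the heterozygous libraries. Of the other 11 members 4 were called lower and none higher, all 4 in every fit that left out 1 library, 3 of them both ways, and Ang4 and Mptx1 also with the sex term (adjusted p = 0.00599 and 0.0268). Spink4, a protease inhibitor that goblet cells share, was at 736 and 723 against 691 and 738 RPKM, with overlapping groups. The fourth called gene, the defensin Defa24, was at 7.23 and 56.6 against 2.26 and 1.42 RPKM (adjusted p = 0.0498). It was high in heterozygous replicate 2 alone and was not called after quantile normalization (adjusted p = 0.103).

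Of 31 goblet cell genes tested 3 were called higher and 2 lower, beside 4.97% and 0.576% of all genes. The same 5 were called both ways and none with the sex term, and the median was 0.18. Muc2, the gel-forming mucin of the colon, was at 2210 and 2150 against 2008 and 2040.4 RPKM (-0.11 ± 0.28, adjusted p = 0.772), and its sign turned after quantile normalization (0.38). The members that fell were Clca3, a mucus-processing protease of goblet granules, at 770.0 and 724 against 131 and 133 RPKM (-2.49 ± 0.24, adjusted p = 0.00132), and Fcgbp, a mucus-binding protein, at 442 and 383 against 181 and 183 RPKM (-1.17, adjusted p = 0.0398). Those that rose included the membrane mucins Muc13, from 94.9 and 132 to 345 and 385 RPKM (1.69, adjusted p = 0.0146), and Muc1, from 0.538 and 0.323 to 2.46 and 2.77 RPKM (1.34, adjusted p = 0.00387). The Fcgbp call was lost without any 1 of the 4 compared libraries (0.0617 to 0.251), and the Muc13 call without null G4 replicate 2 (adjusted p = 0.079). Tuft cells, which sense luminal contents, had 12 genes tested, of which 3 reached the filter only through the heterozygous libraries. Of the other 9 members 1 was called lower as deposited and 5 after quantile normalization, beside 0.576% and 0.89% of all genes. Among the 9, 8 were lower in null G4 without overlap, beside 6.5% of all genes. Their signalling adaptor Sh2d6 was at 3.14 and 3.65 against 1.74 and 1.5 RPKM (-0.75, adjusted p = 0.0321), a call lost without any 1 of the 4 libraries (0.0777 to 0.262), and the channel Trpm5 was at 2.44 and 2.54 against 1.32 and 1.45 RPKM (-0.55, adjusted p = 0.0547, and 0.0187 after quantile normalization). Of 13 enteroendocrine genes 1 was called higher, beside 4.97% of all genes. It was Tac1, which encodes substance P, at 0.351 and 0.346 against 3.13 and 3.38 RPKM (1.66 ± 0.15, adjusted p = 0.00104). Chga, the granule protein common to hormone cells, was at 9.93 and 13.5 against 7.85 and 7.93 RPKM and passed, as lower, only after quantile normalization (adjusted p = 0.0355).

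Absorptive cells take up salt, water and nutrients. The surface colonocyte list summed to 2093 and 5062 against 2777 and 3231 RPKM, and the list of small intestinal enterocytes to 161 and 422 against 186 and 207 RPKM, so that heterozygous replicate 2 was the highest in both sums. Of 29 surface colonocyte genes tested 4 were called higher as deposited, beside 4.97% of all genes, and none after normalization. Without overlap 12 were higher and 1 lower, beside 74.7% and 6.5% of all genes. Atp12a, a proton pump of the colon, was at 4.83 and 2.67 against 33.8 and 36.7 RPKM (2.97, adjusted p = 0.00621, 0.0748 after normalization and 0.0174 with the sex term). The water channel Aqp4 was at 42.9 and 35.8 against 84 and 99.5 RPKM (1.20, adjusted p = 0.0329, and 0.165 after normalization), a call lost without any 1 of the 4 compared libraries (0.0619 to 0.24). Both were higher in the 2 null G4 libraries. Of 16 genes of small intestinal enterocytes tested 2 were called lower as deposited, beside 0.576% of all genes, and none after normalization. Their median was -0.99. In this list 4 were higher and 10 lower without overlap, beside the same 74.7% and 6.5% of all genes. Fabp1, a fatty acid binding protein, was at 6.92 and 19.3 against 1.06 and 1.21 RPKM (-2.57, adjusted p = 0.0304, and 0.0557 after normalization), and Apoa1 of lipoproteins at 6.85 and 26.4 against 2.94 and 1.99 RPKM (adjusted p = 0.0501). In both genes heterozygous replicate 2 was the highest. Fabp6, a bile acid binding protein of the ileum, was at 1.26 and 11.5 against 22.3 and 27.7 RPKM (2.28 ± 0.63, adjusted p = 0.0572). Cldn8, a sealing claudin of the distal colon, was at 4.14 and 3.98 against 30.5 and 34.9 RPKM (2.73 ± 0.18, adjusted p = 1.4e-04, and 0.0157 with the sex term). It was 1 of 2 called higher among 27 tight junction and desmosome genes, beside 4.97% of all genes.

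Hox genes keep a record of position along the gut, with high paralogue numbers towards the anus. Of 17 tested 2 were called higher, beside 4.97% of all genes, and none lower, and neither call held after quantile normalization. Hoxd13 was at 1.02 and 1.22 against 6.28 and 7.81 RPKM (1.92 ± 0.32, adjusted p = 0.0204, and 0.112 after normalization), and with the sex term its adjusted p was 0.011. Hoxb13 was at 25.2 and 14.8 against 48.1 and 60.5 RPKM (1.44 ± 0.29, adjusted p = 0.0347, and 0.201 after normalization), a call lost without heterozygous replicate 2 or null G4 replicate 2 (adjusted p = 0.0786 and 0.154). Hoxa13 was at 5.4 and 4.43 against 7.9 and 9.39 RPKM (0.71, adjusted p = 0.0542). All 3 members of paralogue group 13 were higher in null G4 without overlap, which 74.7% of all genes also show. Over all 17 genes 6 were higher and 8 lower without overlap, beside 74.7% and 6.5% of all genes. The 11 tested genes of groups 3 to 8 lay on the other side of 0 from group 13. Their log2 differences ran from -0.48 to -0.035, and none was called as deposited. With the sex term 1 of them was called lower: Hoxb7 was at 3.09 and 3.37 against 2.57 and 2.7 RPKM, with reactivated values of 4.2 and 0.989 RPKM, and its log2 difference of -0.22 (adjusted p = 0.643) became -1.60 (adjusted p = 0.0174) with that term. The labels do not state from which stretch of the large intestine each sample came, and the part of position in the values above was not tested.

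**Figure D4:**
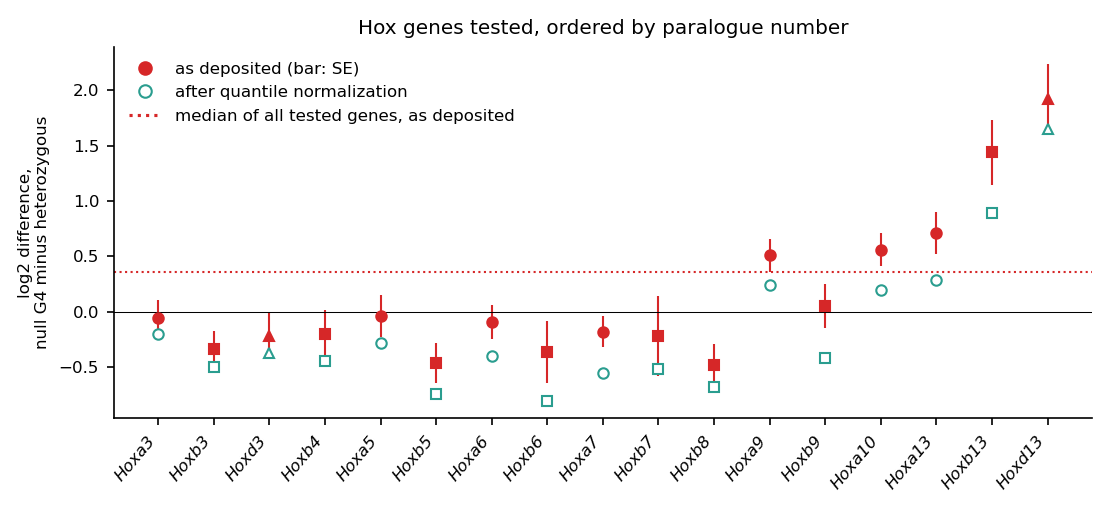
Log2 difference (null G4 minus heterozygous) of the 17 tested Hox genes, ordered by paralogue number, with the SE as a bar for the deposited values in red and open green symbols after quantile normalization. Groups 3 to 8 lie at or below 0, and Hoxd13 and Hoxb13 lie highest at 1.92 and 1.44.

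Most genes of mitosis were called higher as deposited. Of 57 mitosis and G2/M genes all were higher in null G4 without overlap, beside 74.7% of all genes. As deposited 42 were called, beside 4.97% of all genes, with a median of 0.96. After quantile normalization 2 were called, with a median of 0.59, and none of the 42 calls was kept in every fit that left out 1 library or with the sex term. Mki67, the proliferation antigen Ki-67, was at 20.4 and 19.6 against 40.1 and 41.7 RPKM (1.00 ± 0.22, adjusted p = 0.0442), with an adjusted p of 0.135 after normalization and of 0.0861 to 0.258 without any 1 of the 4 libraries. Among 45 genes of DNA replication 1 was called higher as deposited, beside 4.97% of all genes, and none after normalization. Their median was 0.72. Replication-dependent histones had a median of 0.75 and none of 53 called, and since they lack a poly(A) tail their level also depends on how RNA was selected. Summed over each list, the reactivated pair split: mitosis genes stood at 259.7 and 269 RPKM in heterozygous, 536 and 605 RPKM in null G4, and 479.7 and 287 RPKM in reactivated libraries. Replication genes stood at 189 and 191, 333 and 383, and 359 and 177 RPKM. For MHC class II the same sums were 89.8 and 129, 1042 and 1243, and 1179.7 and 999 RPKM, so that reactivated replicate 2 lay with heterozygous in the first pair of lists and with null G4 in the last. The 2 reactivated libraries differ in sex as read from Xist and Y-linked genes, and the part of sex in this split was not tested.

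**Figure D5:**
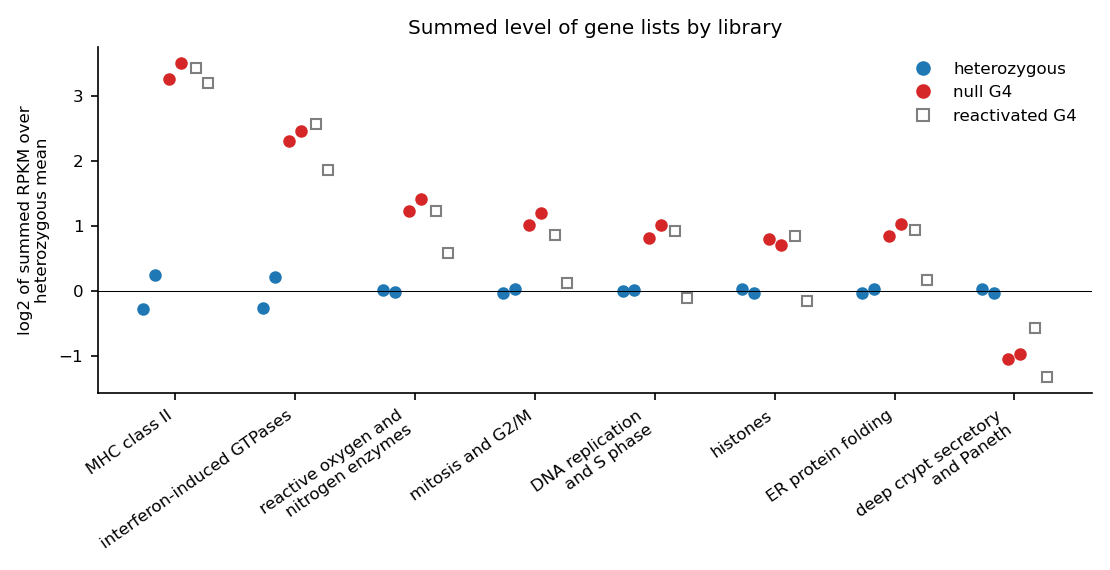
Summed RPKM of gene lists in each library as log2 of the ratio to the heterozygous mean, with heterozygous in blue, null G4 in red and reactivated in open grey squares. For class II genes both reactivated squares lie with the red points, and for mitosis, replication and histone genes 1 square lies with the red and 1 with the blue points.

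The p53 factor responds to DNA damage by halting division or starting cell death. Among 26 p53 targets 3 were called higher as deposited, beside 4.97% of all genes, and none after normalization, with a median of 0.31. Trp53 was at 5.1 and 4.58 against 4.84 and 5.69 RPKM (0.099 ± 0.16, adjusted p = 0.632), and Cdkn1a, the cell cycle inhibitor p21, at 7.98 and 14.9 against 14.7 and 15 RPKM (0.41 ± 0.34, adjusted p = 0.351). Groups overlapped in both, and both signs turned after quantile normalization (-0.29 and -0.073). Of 36 DNA damage and repair genes 1 was called higher, beside 4.97% of all genes, and of 15 telomerase and shelterin genes none. Of 27 genes of apoptosis and necroptosis 7 were called higher, 1 both ways, beside 4.97% and 1.18% of all genes. That one was Ripk3, the kinase that starts necroptosis, at 4.82 and 5.51 against 13.1 and 13.8 RPKM (1.23, adjusted p = 0.00803), a call lost without null G4 replicate 2 (adjusted p = 0.0508). Of 18 stem cell genes 1 was called higher, beside 4.97% of all genes, none after normalization, and the median was 0.43. The called member was Aqp4, which is also on the surface colonocyte list. Lgr5, the receptor that marks crypt base stem cells, was at 0.928 and 0.813 against 0.591 and 0.537 RPKM, under the filter in each library and untested.

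The respiratory complexes are built from subunits encoded in mitochondria and in the nucleus. Of 11 mitochondrially encoded genes tested 10 were lower in null G4 without overlap, beside 6.5% of all genes, and 1, mt-Co3, a subunit of cytochrome oxidase, was called, at 8.79 and 12.1 against 5.81 and 4.35 RPKM (-0.91, adjusted p = 0.0442), a call lost without heterozygous replicate 2 or either null G4 library (0.0683 to 0.315). Their median was -0.76. The 77 nuclear genes of oxidative phosphorylation had a median of 0.58, and after normalization the median was 0.07. Of these 77 genes all but 2 were higher without overlap, beside 74.7% of all genes, and none was called. Cytosolic ribosomal protein genes had a median of 0.48, which was 0.05 after normalization, and none of 79 was called. In glycolysis 5 of 18 tested genes were called higher and 3 both ways, beside 4.97% and 1.18% of all genes. Hk2, the inducible hexokinase, was at 12.9 and 14.4 against 33.6 and 35.8 RPKM (1.29, adjusted p = 0.0116). The call was lost without heterozygous replicate 1 or either null G4 library (0.0512 to 0.0886). Ldhb, the lactate dehydrogenase subunit that favours lactate use, was at 1.86 and 1.7 against 0.425 and 0.647 RPKM and reached the filter only through the heterozygous libraries. Cholesterol synthesis had 6 of 23 genes called higher as deposited and none after normalization, beside 4.97% and 1.18% of all genes.

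Clock genes were called in both directions. Of 15 clock genes 2 were called higher and 6 lower, beside 4.97% and 0.576% of all genes. Both ways the counts were 1 and 2, and none was called with the sex term. Dbp, an output factor of the clock, was at 6.18 and 4.89 RPKM in heterozygous, 0.293 and 0.215 RPKM in null G4 and 0.486 and 3.33 RPKM in reactivated libraries (-2.38 ± 0.4, adjusted p = 0.0205, and 0.075 after normalization). Tef, a factor of the same family, was at 6.55 and 6.48, 0.935 and 1.01, and 1.41 and 4.65 RPKM in that order (-1.93 ± 0.33, adjusted p = 0.0204, and 0.0659 after normalization). Arntl, the activator whose daily peak lies opposite to that of Dbp, was at 1.49 and 2.5, 10.7 and 11.6, and 9.11 and 2.83 RPKM (2.04 ± 0.39, adjusted p = 0.0304), a call lost after normalization (adjusted p = 0.0815) and without heterozygous replicate 1 (adjusted p = 0.0598). Dbp and Tef were low, and Arntl high, in both null G4 libraries and in reactivated replicate 1. The time of day of collection is not in the labels, and its part in these values was not tested.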

How the data were processed

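Per the labels' protocols, a Qiagen RNeasy Mini kit gave the RNA, of which 1 ug per sample went into a TruSeq RNA library. STAR 2.3.0e and mm10 are named in the submitters' processing notes without a role. How reads were assigned to genes, with which annotation and on which strand, is not given in the sources used here. RPKM is the unit deposited by the authors, in 1 table of 28793 genes by 12 libraries, of which the 6 unsorted ones were used. Of the low values 81.7% to 83.7% per library were whole multiples of 1 read, which gave the implied depths. No count test was run, because RPKM values are not counts.

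Values were transformed to log2(RPKM + 1), and genes reaching 1 RPKM in 2 or more of the 6 libraries were fitted with limma 3.58.1 in R 4.3.3 (3 groups, two-sided moderated test with a trend on the mean, Benjamini-Hochberg adjustment over 11464 genes). Fold differences are on that scale, which understates changes of low genes. On simulated data 79 of 100 genes changed by 1 log2 unit and 100 of 100 changed by 2 were recovered, with 10 false among 189 calls. The simulated noise was independent between genes, with no shift shared across a library. The deposited values do have such a shift, so these rates need not hold for them. Tables and plots were made in Python 3.11.15 (numpy 2.4.6, pandas 2.3.3, matplotlib 3.10.9). Gene coordinates come from GENCODE M21, in which 98.1% of the identifiers were found.

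The members and the 66 gene lists were chosen with earlier results of these data known. Named were Tert, Cd74, Reg3b and Ang4, the 15 highest and 15 lowest differences among genes called both ways, up to 6 members of smallest p of a list, and Yap1, Il18, Casp1, Cdkn1a, Lgr5, Trp53, Mki67, Muc2 and Ciita. Not every gene that the rule takes is described, and 1 is not reported here. Outside this rule, and chosen after their values were seen, are B2m, C1qb, C1qc, Cd80, Cd86, Clu, Ctgf, Ctss, Cyr61, H2-Oa, H2-Ob, Hoxb7, Ifng, Ifngr1, Itgax, Lgmn, Lyz2, Mrc1, Spink4, Tgtp2, Ubd, the mitochondrial ribosomal RNAs, Xist and genes that are in no list. The alternatives were quantile normalization, median scaling, removal of mitochondrial genes, other pseudocounts and filters, a sex term, a replicate block, the 4 libraries alone and leaving out each library; the sex term with quantile normalization was added after the data were seen.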

Additional observations from a re-analysis of the deposited data

How the results depend on the processing

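Counts of called genes moved widely with the processing, from 570 higher and 66 lower as deposited. They were 135 and 102 after quantile normalization, 147 and 175 with median scaling, 59 and 10 with the sex term, 39 and 9 with quantile normalization and that term combined, 16 and 5 without the filter on low values, and 5513 and 291 in the 4 compared libraries alone. Removing mitochondrial genes left 232 higher, and a filter of 1 RPKM in all 4 libraries gave 1747 higher. Leaving out 1 library gave 134 to 5415 higher and 42 to 280 lower. Without heterozygous replicate 1 or 2 the counts were 154 and 90 or 261 and 62, without null G4 replicate 1 or 2 they were 178 and 43 or 134 and 42, and without reactivated replicate 1 or 2 they were 5406 and 280 or 5415 and 278. Of the calls, 89.6% were higher as deposited, 57% after quantile normalization, 45.7% with median scaling and 82% without mitochondrial genes. The causes were not tested.

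With the replicate number as a block 1160 genes were called higher and 157 lower. The numbers are not shown to pair the libraries: the correlations of same-numbered deviations were 0.219 for heterozygous with null G4, -0.069 for heterozygous with reactivated and -0.124 for null G4 with reactivated.

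Of 87 genes named with a difference 68 were called, and 48 of these had a value in all 18 alternatives; the filter of 1 RPKM in all 4 libraries left 49 of the 68 and the removal of mitochondrial genes 67. None of the 68 turned sign in the alternatives that gave it a value, and 9 of the 48 were called in all 18. Signs turned in 4 genes that were not called. After quantile normalization the log2 difference was -0.073 for Cdkn1a, 0.38 for Muc2, 0.019 for Spink4 and -0.29 for Trp53. For Trp53 it was -0.26 with median scaling, -0.012 without mitochondrial genes and -0.11 with the sex term, and with quantile normalization added to that term 0.12 for Muc2 and -0.22 for Trp53. Over the fits that left out 1 library it ran from -0.0026 to 0.82 for Cdkn1a and from -0.078 to 0.016 for Spink4. Pseudocounts of 0.1 and 5 and a fit with no mean trend kept both counts within 1.5 times.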

Other observations

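Several genes called both ways belong to no list described above. Upp1, which breaks down uridine, was at 3.36 and 4.73 RPKM in heterozygous and at 50.5 and 59.9 RPKM in null G4 libraries (log2 difference 3.49 ± 0.22, limma adjusted p = 1.2e-04, and 0.0166 with the sex term). Stom, a scaffold protein of the plasma membrane, was at 1.26 and 1.74 against 12.8 and 14.2 RPKM (2.54, adjusted p = 1.4e-04, and 0.014 with the sex term). Both were low in the 2 heterozygous libraries without overlap. The surface enzyme Cd38, which consumes NAD, was at 18.9 and 20.9 against 56.8 and 65.1 RPKM (1.57, adjusted p = 0.00623), and it was not called with the sex term (adjusted p = 0.105). Cma1, a mast cell chymase, was at 0.223 and 0.285 against 3.01 and 3.02 RPKM (1.68, adjusted p = 6.0e-04). The 12 neutrophil and mast cell markers summed to 13.1 and 13.2 against 22.6 and 25.6 RPKM, with 9 under 1 RPKM in all 4 libraries. Of the 2 markers tested, Ly6g was at 1.63 and 0.675 against 13.1 and 15.3 RPKM. Kit was at 11 and 11.3 against 9.01 and 9.52 RPKM, so the higher sum was that of Ly6g.

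Of the genes that fell, Clps, a cofactor of pancreatic lipase, was at 9.64 and 12.1 against 2.06 and 2.15 RPKM (-1.93, adjusted p = 0.00381, and 0.014 with the sex term), and Ces1d, a carboxylesterase, at 10.8 and 13.7 against 3.83 and 4.3 RPKM (-1.38, adjusted p = 0.00877). The groups did not overlap in either gene.

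Among the 14 higher and 6 lower predicted genes or gene segments called both ways, a pair stood out by the reactivated libraries, chosen after their values were seen. Gm9762 was at 7.91 and 7.07 RPKM in heterozygous, 1.02 and 0.804 RPKM in null G4 and 8.74 and 9.63 RPKM in reactivated libraries (-2.15 for null G4, adjusted p = 2.1e-04). Gm10355 was at 0.0438 and 0, 1.79 and 1.39, and 0.0188 and 0 RPKM in the same order; it reached 1 RPKM only in the null G4 libraries, so no test is given. In both, the reactivated values lay with the heterozygous ones. Such predicted genes can be copies of other genes, so their reads may come from elsewhere.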
